A study of Arabidopsis thaliana with 34 samples.

Results

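The 10 genes described here write, guide or erase DNA methylation in Arabidopsis thaliana. They were chosen by name and locus: MET1 (AT5G49160), CMT3 (AT1G69770), DRM2 (AT5G14620), DDM1 (AT5G66750), NRPD1 (AT1G63020), NRPE1 (AT2G40030), RDR2 (AT4G11130), DCL3 (AT3G43920), ROS1 (AT2G36490) and DME (AT5G04560), 10 of the 33321 loci in the deposited table of counts, and all 10 passed the filter on low counts. Plants methylate cytosine in CG, CHG and CHH contexts. MET1 copies CG methylation after replication, CMT3 keeps CHG methylation, and the chromatin remodeller DDM1 opens packed DNA to these enzymes. In RNA-directed DNA methylation (RdDM), RNA polymerase IV (largest subunit NRPD1) makes short transcripts, RDR2 turns them into double strands and DCL3 cuts these into small interfering RNAs. RNA polymerase V (largest subunit NRPE1) makes the scaffold transcripts at which those small RNAs bring in the de novo methyltransferase DRM2. The DNA glycosylases ROS1 and DME remove methylcytosine. In F1 hybrids, RdDM is known as a route by which the methylation state of an allele can change towards that of the other parent.

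The RNA came from the whole aerial part of seedlings 15 days old, grown on agar plates, with 5 to 15 of them pooled into each library. Inbred plants came from C24, Ler and Col. F1 plants came from both directions of each cross between them, named C24xLer and LerxC24 for the C24/Ler family, C24xCol and ColxC24 for C24/Col, and ColxLer and LerxCol for Col/Ler. The labels name no treatment, mutation or transgene for any group, and do not say which variants each accession carries. Whether the first name in a cross is the seed parent is not stated in the labels. The series is about growth, defence and stress in F1 hybrids; the comparisons below ask whether the transcripts of the methylation genes differed between accessions and whether hybrids left the level midway between their parents.

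Of 34 libraries, 28 are used: 6 of C24 (replicates A, B, D, E, F and G), 4 of Ler (A, B, F and G), 4 of C24xLer (A, B, D and E), 4 of LerxC24 (A, B and a pair without a letter of their own in the labels, called U1 and U2), and replicates A and B of Col and of each cross with Col. They held 36324848 to 88686247 counts, and the lowest count of any of the 10 genes in any library was 387 (NRPD1). The 4 libraries lettered C were left out: they held 13198638 to 20435372 counts and 11393 to 11692 loci at 0, against 2072 to 2742 loci in the 28. DCL3 was listed at 0 counts in replicate C of Ler, C24xLer and LerxC24 and at 270 in replicate C of C24. Ler D and Ler E were left out too: 12 genes that C24 and Col expressed and Ler A and B barely did stood at a median of 44.1% and 40.4% of their C24 and Col level there, and at 0.607% or less in each other Ler library. The tissue matched its label: 5 leaf genes summed to 15590 to 36677 CPM per library and 7 root genes to 9.11 to 12.4 CPM.

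The 3 stretches of DNA printed here are the 250 bases before the annotated start of each gene in the TAIR10.1 reference sequence, from the RefSeq genome, read 5′ to 3′ on the gene's own strand. They are shown because the transcripts of CMT3 and ROS1 each varied with those of MET1 over the libraries (Pearson r = 0.83 and 0.80). Between CMT3 and ROS1 r was 0.52. Capitals mark the letters TTTCCCGC, a form of the site bound by E2F factors, which switch genes on at DNA replication. TTTCCCGC, TTTGGCGC, TTTCGCGC and TTTGCCGC were searched on both strands.
MET1, chr5:19931864-19932113, plus strand: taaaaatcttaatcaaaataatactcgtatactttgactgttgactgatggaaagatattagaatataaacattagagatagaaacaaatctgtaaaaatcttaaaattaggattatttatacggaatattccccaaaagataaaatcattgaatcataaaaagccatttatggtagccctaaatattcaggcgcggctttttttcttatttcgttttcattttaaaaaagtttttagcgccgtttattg
CMT3, chr1:26253688-26253937, minus strand: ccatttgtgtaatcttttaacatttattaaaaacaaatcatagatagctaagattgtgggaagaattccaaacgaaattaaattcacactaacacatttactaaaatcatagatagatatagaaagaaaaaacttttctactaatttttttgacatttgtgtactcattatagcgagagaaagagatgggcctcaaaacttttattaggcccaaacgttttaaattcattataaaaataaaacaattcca
ROS1, chr2:15314808-15315057, minus strand: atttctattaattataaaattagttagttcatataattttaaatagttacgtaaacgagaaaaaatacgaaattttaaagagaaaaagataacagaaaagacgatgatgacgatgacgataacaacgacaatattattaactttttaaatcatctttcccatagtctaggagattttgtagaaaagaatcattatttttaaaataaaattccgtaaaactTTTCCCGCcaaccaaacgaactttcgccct
Of these 3 windows, that of ROS1 held a match, 30 bases before its start. Over the 27443 protein-coding genes, 387 windows of this length (1.41%) held any of the 4 forms and 0.619% held TTTCCCGC. Of the 12 genes listed as markers of dividing cells, the replication helicase genes MCM2 and MCM5 held TTTCCCGC, 14 and 19 bases before their starts. These are matches of letters and not shown to be sites.

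All 10 genes were expressed in each of the 28 libraries. Levels are in CPM, a library's counts rescaled to a common total and scaled between libraries by the TMM method, and to compare genes they were divided by exon length. Per kilobase, the demethylase genes stood highest, ROS1 at a mean of 21.2 and DME at 13.9 CPM per kb over the 28 libraries. The methyltransferase genes and DDM1 followed at 8.77 (MET1), 7.72 (DRM2), 6.88 (DDM1) and 6.29 (CMT3) CPM per kb. Of the RdDM genes NRPE1 had 5.50 CPM per kb, RDR2 3.31, DCL3 2.81 and NRPD1 2.39. The ratio of the highest to the lowest library ran from 1.42 for DRM2 to 2.47 for CMT3. DCL3 overlaps AT3G43930 on the opposite strand, and since no source used here states whether counting used strand, its counts may hold reads of both.

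**Figure D1:**
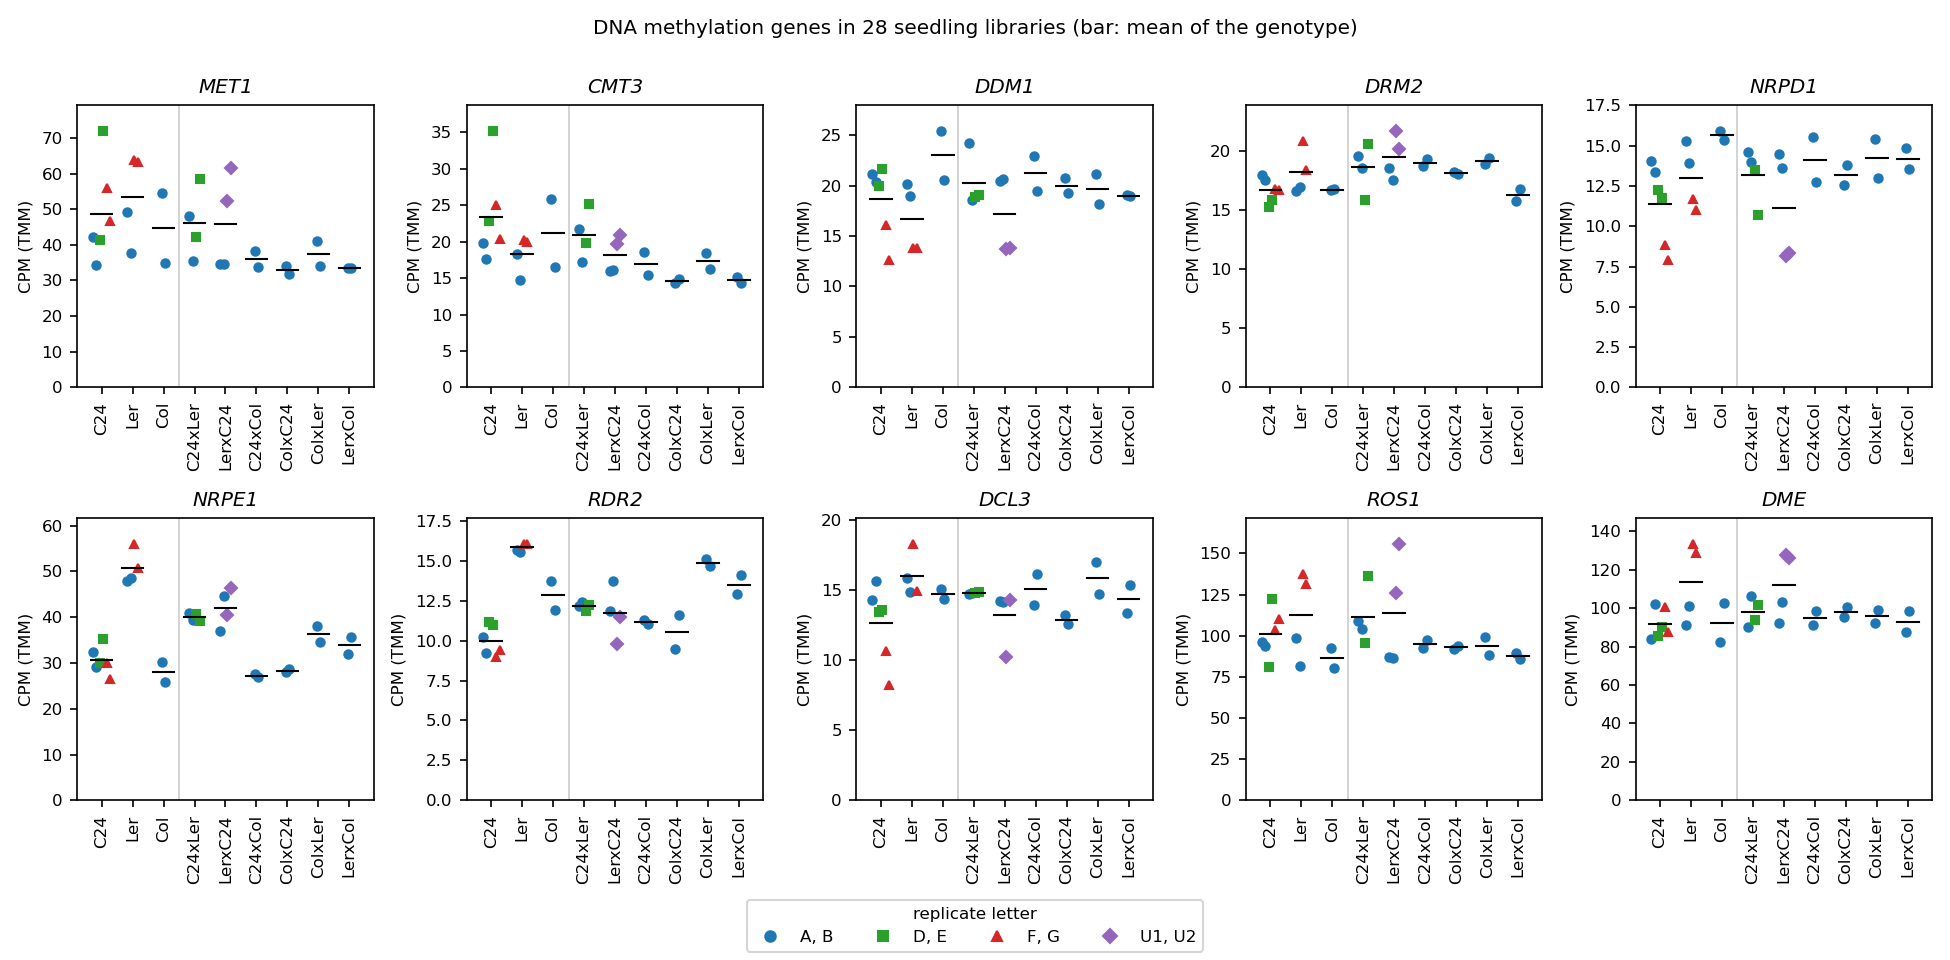
Each panel gives 1 gene; the vertical axis is its level (CPM, TMM scaled, from 0) and the horizontal axis the genotype, with inbreds left of the line and hybrids right of it. Points are libraries, coloured by replicate letter, and bars are genotype means. The 4 Ler libraries are above all others for NRPE1 (47.9 to 56.0 CPM) and RDR2 (15.6 to 16.0 CPM), and the F, G, U1 and U2 points lie lowest for DDM1 (12.6 to 16.1 CPM).

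Between the inbreds, the 2 genes called in the main edgeR fits, which had no term for the replicate letter, were NRPE1 and RDR2, each highest in Ler. NRPE1 (chr2:16714460-16723718, TAIR10.1) had 47.9, 48.5, 56 and 50.8 CPM in Ler A, B, F and G. In the 6 C24 libraries it had 26.5 CPM at the lowest, 30.0 at the median and 35.3 at the highest, and in Col A and B 30.2 and 26 CPM. Each Ler library was above each C24 and Col library, and the ranges of C24 and Col overlapped. The log2 difference of C24 from Ler in NRPE1 was -0.74 ± 0.09 (SE), a 1.67-fold difference (adjusted p = 1.41e-05, edgeR's quasi-likelihood test with Benjamini-Hochberg adjustment over 29528 genes). That of Col from Ler was -0.77 ± 0.11 (adjusted p = 0.000446, edgeR, 29777 genes, replicates A and B), and between C24 and Col the log2 difference was 0.12 ± 0.11 (adjusted p = 0.573, edgeR).

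RDR2 (chr4:6780449-6784632), the RNA-dependent RNA polymerase that works with polymerase IV, had 15.7, 15.6, 16 and 16 CPM in Ler A, B, F and G. The 6 C24 libraries had 8.96 CPM at the lowest, 9.80 at the median and 11.2 at the highest, and Col A and B had 13.7 and 11.9 CPM. Ler lay above Col and Col above C24 in every library, with no overlap between any of the 3. The log2 difference of C24 from Ler was -0.67 ± 0.09, a 1.59-fold difference (adjusted p = 5.75e-05, edgeR). That of C24 from Col was -0.41 ± 0.12 (adjusted p = 0.0354, edgeR), and it was not called in fits without C24 A (0.0737), Ler A (0.0502), C24 B (0.193), Col A (0.210), C24xCol A (0.0519) or C24xCol B (0.0518), with the adjusted p of each in parentheses. Col against Ler gave -0.27 ± 0.12, not called (adjusted p = 0.156, edgeR).

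A gene is called here where its adjusted p was below 0.05. C24 against Ler called 2 of the 10, both lower in C24, where 14.3% of all genes tested were called, 7.29% higher and 7% lower. With the replicate letter as a block it also called NRPD1, DME and DCL3, where 32.2% of all genes were called. C24 against Col called 1 of the 10 (RDR2, lower in C24; 13.3% of all genes called, 5.59% higher and 7.67% lower), and Col against Ler called 1 (NRPE1, lower in Col; 13.9% called, 7.91% higher and 6% lower). An F test of any difference among the 9 genotypes called 2 of the 10, NRPE1 (adjusted p = 0.00105, edgeR) and RDR2 (adjusted p = 0.0124, edgeR), where 17.2% of genes were called. DESeq2 called the same number as the main edgeR fits in each pairwise comparison, where it called 17.7%, 15.1% and 16% of all genes. In its test over the 9 genotypes it called 3, DRM2 being the third (adjusted p = 0.0127), where it called 27.7% of all genes. Median log2 differences over the 10 genes were -0.17 for C24 against Ler, -0.08 for C24 against Col and -0.02 for Col against Ler, where the medians over all genes tested were -0.01, 0.01 and 0.00.

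**Figure D2:**
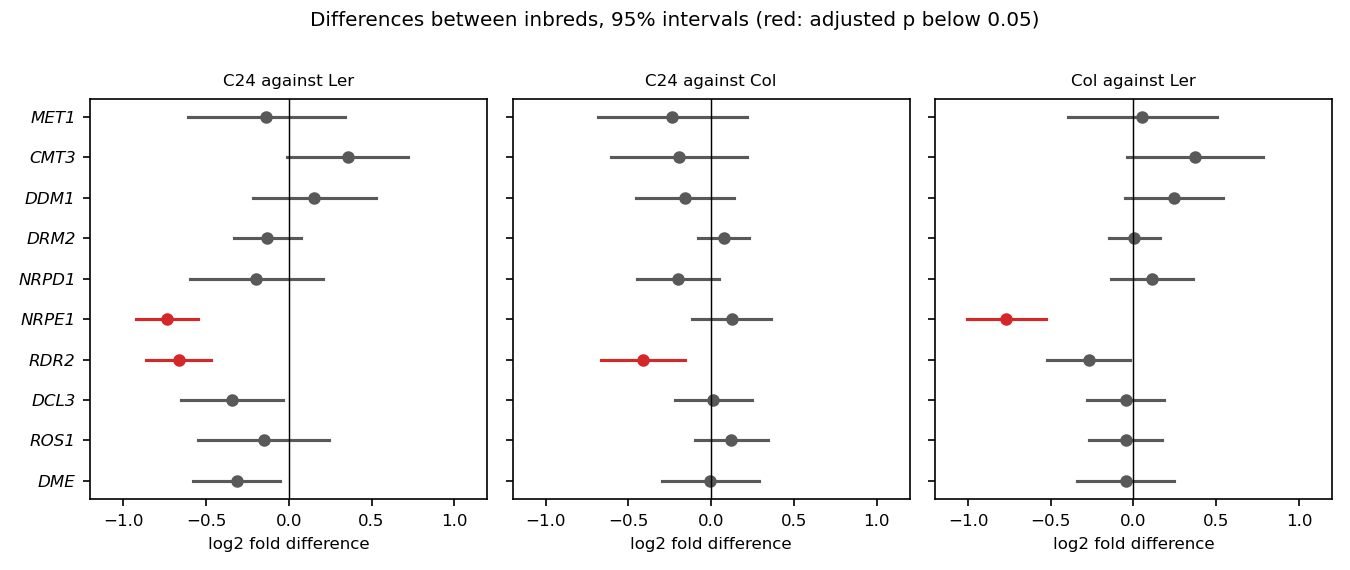
Log2 fold differences (horizontal axis) of the 10 genes between inbreds, as points with 95% intervals, 1 panel per pair; red marks an adjusted p below 0.05. NRPE1 and RDR2 are red in C24 against Ler (-0.74 and -0.67), RDR2 in C24 against Col (-0.41) and NRPE1 in Col against Ler (-0.77).

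The higher NRPE1 and RDR2 of Ler held within each replicate letter that C24 and Ler share. For NRPE1 the ratio of Ler to C24 was 1.47 in A, 1.67 in B, 1.87 in F and 1.92 in G. For RDR2 it was 1.54, 1.68, 1.79 and 1.71. Ler also differed in flower genes: 5 of them summed to 19.9 to 27.0 CPM in Ler, 8.59 to 11.5 in C24 and 9.83 to 11.0 in Col, none being at 0 throughout. For C24 against Ler edgeR called 4 of the 5, all lower in C24, where 14.3% of all genes were called. For Col against Ler it called 2 lower and 1 higher in Col, where 13.9% were called. Of the flower genes, AP3 averaged 3.45 CPM in Ler and 0.745 in C24, and SEP3 10.7 and 3.0. The part of the flower genes in the differences of NRPE1 and RDR2 was not tested. In such bulk tissue, more cells of a type and more RNA per cell cannot be told apart. In the libraries left out, NRPE1 had 37.2, 36.3 and 40.9 CPM in Ler C, D and E, below the other Ler libraries, and RDR2 had 12.5, 15.4 and 16.9 CPM. With all 24 libraries of C24, Ler and their hybrids, the C24 against Ler differences were -0.56 for NRPE1 and -0.62 for RDR2 (adjusted p = 0.00175 and 0.000317, edgeR).

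The remaining 8 genes were not called between any pair of inbreds in the main edgeR fits, with no library left out and no letter term. Calls of CMT3 and DME in fits with a library left out are given below. With the replicate letter as a block, C24 against Ler also called NRPD1, DME and DCL3, where 32.2% of all genes were called. MET1 (chr5:19932114-19938470), the CG methyltransferase, averaged 48.7 ± 13.4 CPM (SD, n = 6) in C24, 53.5 ± 12.5 CPM (SD, n = 4) in Ler and 44.8 ± 13.8 CPM (SD, n = 2) in Col. Its spread within a genotype was wide: the 6 C24 libraries ran from 34.5 to 72 CPM, and the 95% interval of the C24 against Ler log2 difference was -0.61 to 0.34. CMT3 (chr1:26248118-26253687), its CHG counterpart, averaged 23.5 ± 6.31 CPM (SD, n = 6) in C24 and 18.3 ± 2.53 CPM (SD, n = 4) in Ler (log2 difference 0.35 ± 0.17, adjusted p = 0.208, edgeR). In Col A and B CMT3 stood at 25.9 and 16.5 CPM, and without Col B the Col against Ler difference of 0.37 became 0.66 and was called (adjusted p = 0.0255, edgeR), whereas without Col A it was 0.01 (adjusted p = 0.984, edgeR). DRM2, the de novo methyltransferase, was the steadiest gene of the 10 at 15.2 to 21.7 CPM over all 28 libraries, with a C24 against Ler interval of -0.33 to 0.07. The remodeller gene DDM1 averaged 18.6 ± 3.53 CPM (SD, n = 6) in C24, 16.7 ± 3.34 CPM (SD, n = 4) in Ler and 23 ± 3.43 CPM (SD, n = 2) in Col.

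NRPD1, the polymerase IV subunit that feeds RDR2, averaged 11.4 ± 2.47 CPM (SD, n = 6) in C24 and 13 ± 1.98 CPM (SD, n = 4) in Ler, with an interval of -0.60 to 0.21 for the log2 difference. Within letters A, B, F and G the ratio of Ler to C24 was 1.09, 1.04, 1.33 and 1.39. The dicer gene DCL3 averaged 12.6 ± 2.71 CPM (SD, n = 6) in C24 and 16 ± 1.60 CPM (SD, n = 4) in Ler (log2 difference -0.34 ± 0.15, unadjusted p = 0.0317 and adjusted p = 0.141, edgeR). C24 F and G were the lowest for DCL3, at 10.6 and 8.24 CPM, while Ler F and G had 18.3 and 15. The ratio of Ler to C24 for DCL3 was 1.11 in A, 0.948 in B, 1.72 in F and 1.81 in G. ROS1 (chr2:15307907-15314807), the demethylase of vegetative tissue, had 81.1 to 122 CPM in C24, 81.6 to 137 in Ler and 92.6 and 80.5 in Col A and B, ranges that overlapped. DME, the demethylase best known from the central cell of the ovule, averaged 91.5 ± 7.74 CPM (SD, n = 6) in C24 and 114 ± 20.6 CPM (SD, n = 4) in Ler (log2 difference -0.32 ± 0.12, adjusted p = 0.105, edgeR). Ler F and G had 133 and 129 CPM of DME, above all C24 libraries, whereas Ler A and B had 91.3 and 101, within their range. Without Ler A that difference was -0.41 and was called (adjusted p = 0.0430, edgeR), and without Ler F it was -0.23 (adjusted p = 0.320, edgeR). The ratio of Ler to C24 for DME was 1.09 in A, 0.994 in B, 1.33 in F and 1.47 in G.

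No gene of the 10 was called away from the mid-parent, here the average of both parents' log2 levels, in any of the 3 families. In C24/Ler hybrids 0 of 10 were called by edgeR, 0 had an unadjusted p below 0.05 and DESeq2 called 0, where 0.769% of all genes were called by edgeR. In C24/Col hybrids edgeR called 0 (1.24% of all genes), 1 had an unadjusted p below 0.05 and DESeq2 called 0. That gene was CMT3, at -0.34 ± 0.13 (adjusted p = 0.317, edgeR); without Col B it was -0.47 and called (0.0457), and without Col A it was -0.16 (0.832). In Col/Ler hybrids edgeR called 0 (1.12% of all genes), 1 had an unadjusted p below 0.05 and DESeq2 called 0, and that gene was MET1, at -0.33 ± 0.15 (adjusted p = 0.488, edgeR), or -0.15 without Col A. Over all genes, 2074 of 29528 had an unadjusted p below 0.05 in C24/Ler hybrids. In C24/Col and Col/Ler hybrids 3702 and 2971 of 29777 did. Medians over the 10 genes were 0.02, -0.09 and -0.04 in the families C24/Ler, C24/Col and Col/Ler, and 0.00 over all genes in each.

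The intervals give the range of sizes around each estimate. For NRPE1 the 95% interval against the mid-parent was -0.08 to 0.20 in C24/Ler, -0.26 to 0.08 in C24/Col and -0.24 to 0.09 in Col/Ler hybrids. For DRM2 it was -0.02 to 0.28, -0.01 to 0.21 and -0.04 to 0.18, and for ROS1 -0.22 to 0.37, -0.11 to 0.20 and -0.12 to 0.19. MET1 had the widest in the Col families, -0.59 to 0.05 and -0.65 to -0.01, beside -0.51 to 0.20 in C24/Ler. An F test of whether the hybrid effect differed between the 3 families called 0 of 10 in edgeR (0.678% of all genes), with 0 at an unadjusted p below 0.05 and 0 in DESeq2. No gene of the 10 was called in the same direction against each parent, by edgeR or by DESeq2, and none had unadjusted p-values below 0.05 in 1 direction against each. The share of all genes called beyond both parents was not computed, so this count has no background beside it.

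All 6 hybrids together against all 3 inbreds, replicates A and B, gave 0 of 10 called in edgeR (2.44% of all genes), 2 at an unadjusted p below 0.05 and 0 in DESeq2. These were MET1, at -0.23 ± 0.10 (adjusted p = 0.258, edgeR), and DRM2, at 0.09 ± 0.04 (adjusted p = 0.207, edgeR). Over all genes, 5314 of 29777 had an unadjusted p below 0.05 in this comparison. With the replicate letter as a block MET1 was called, at -0.22 (adjusted p = 0.0434, edgeR; 13.3% of all genes were called in that fit). Without Col A and with no block its difference was -0.11 (adjusted p = 0.693, edgeR). MET1 was at 54.5 and 35 CPM in Col A and B, 49.2 and 37.8 in Ler and 42.2 and 34.5 in C24. The 12 hybrid libraries of these letters lay between 31.9 (ColxC24 B) and 48.1 (C24xLer A), overlapping all 3 inbreds. Of 12 genes of dividing cells, edgeR called 0 in the same comparison and 4 had an unadjusted p below 0.05, with a median log2 difference of -0.17. DESeq2 called 1 of the 12, where it called 5.7% of all genes. Their part in the level of MET1 was not tested.

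**Figure D3:**
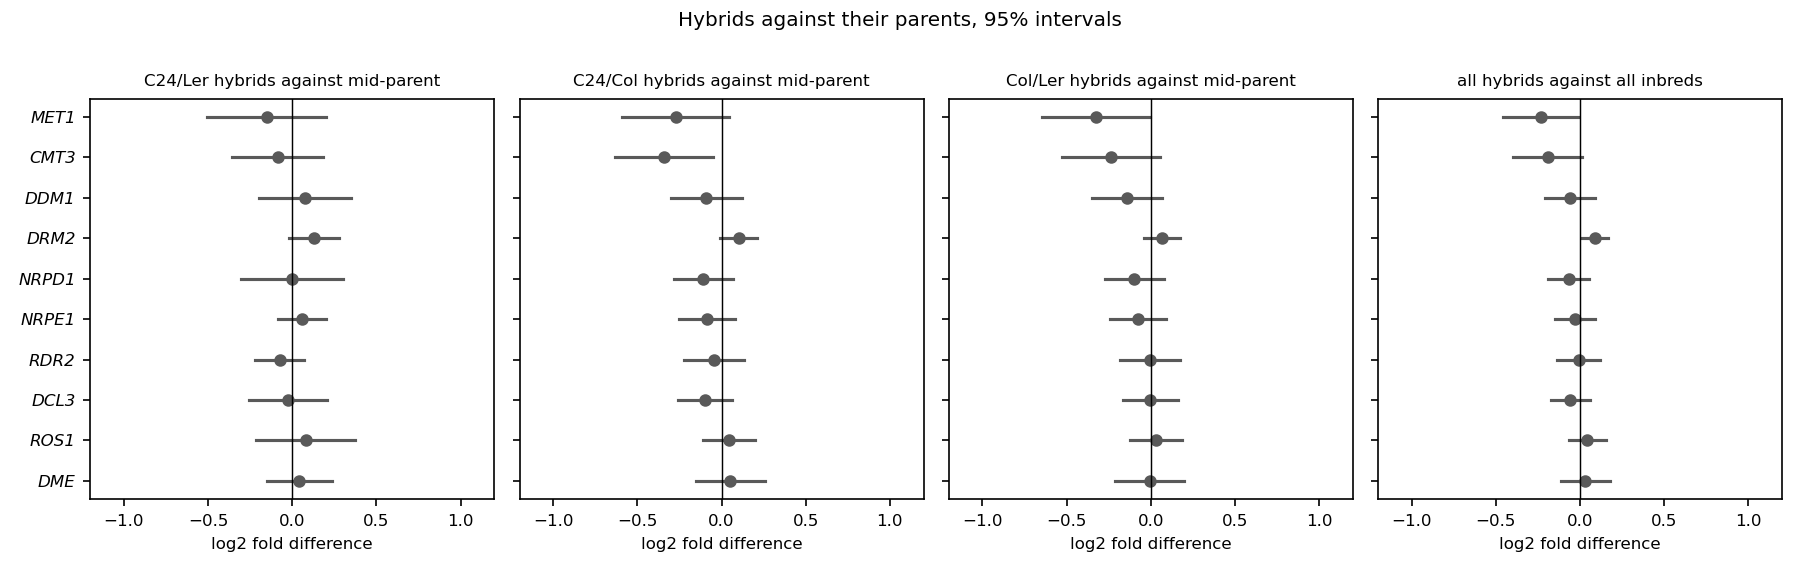
Log2 fold differences (horizontal axis) of the 10 genes between hybrids and the mean of their parents, 1 panel per family and 1 for all hybrids against all inbreds, as points with 95% intervals. None has an adjusted p below 0.05, and MET1 and CMT3 lie left of 0 in all 4 panels (-0.23 and -0.19 in the last).

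NRPE1 and RDR2, which differed between the parents, lay between them in the hybrids. NRPE1 had 40.9, 39.4, 40.6 and 39.2 CPM in C24xLer A, B, D and E, and 37.1, 44.6, 40.6 and 46.3 in LerxC24 A, B, U1 and U2. All 8 values were above the highest C24 library and below the lowest Ler library. Against C24 the log2 difference of the hybrids was 0.43 ± 0.08 (adjusted p = 0.00197, edgeR), 1 of the 10 genes called where 5.24% of all genes were and 2.68% higher. Against Ler it was -0.31 ± 0.09, not called (adjusted p = 0.0549, edgeR); among the fits without a term for the letter it was called with DESeq2 (0.00525), with DESeq2's size factors (0.0481) and without C24 E (0.0409), C24 G (0.0465) or LerxC24 U2 (0.0443). With all 24 libraries the difference from C24 was 0.39 and no longer called (adjusted p = 0.0692, edgeR). Over the letters used, which differ between these genotypes, the mean of the hybrids was 51.9% of the way from the C24 to the Ler mean. In the same 8 hybrid libraries the 5 flower genes summed to 7.00 to 11.2 CPM, within or below the C24 range. Their part in the level of NRPE1 was not tested.

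In the Col/Ler family NRPE1 had 38.1 and 34.5 CPM in ColxLer A and B and 31.9 and 35.8 in LerxCol A and B, above both Col libraries and below all Ler libraries. The log2 difference from Ler was -0.46 ± 0.09 (adjusted p = 0.00906, edgeR; 8.42% of all genes called, 3.71% lower), lost without Ler A (0.0809) or Ler B (0.0631). That from Col was 0.31 ± 0.10, not called (adjusted p = 0.153, edgeR). From Col 0 of the 10 genes were called by edgeR (2.22% of all genes) and 0 by DESeq2, with 3 at an unadjusted p below 0.05. Over all genes, 3499 of 29777 had an unadjusted p below 0.05 from Col. In C24/Col hybrids, whose parents overlapped, NRPE1 was at 27.6 and 26.9 in C24xCol and 28 and 28.6 CPM in ColxC24.

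RDR2 in C24xLer A, B, D and E was 12.1, 12.4, 11.9 and 12.2 CPM, above all C24 and below all Ler libraries, and in LerxC24 A, B, U1 and U2 11.8, 13.7, 9.81 and 11.5, where U1 fell within the C24 range. Against Ler the hybrids differed by -0.41 ± 0.09 (adjusted p = 0.0112, edgeR; 1 of 10 called, 3.7% of all genes and 1.65% lower), a call lost in replicates A and B alone (0.0906). Against C24 they differed by 0.26 ± 0.08, not called (adjusted p = 0.0692, edgeR); among the fits without a term for the letter it was called with DESeq2 (0.0190) or without LerxC24 U1 (0.0251). Over the letters used, which differ between these genotypes, the mean of the hybrids was 33.5% of the way from C24 to Ler. In replicates A and B alone the means were 9.71 CPM in C24, 12.3 in C24xLer, 12.8 in LerxC24 and 15.6 in Ler. RDR2 in ColxLer A and B was 15.1 and 14.6 CPM and in LerxCol A and B 12.9 and 14.1. C24xCol A and B had 11.3 and 11.1 CPM, and ColxC24 A and B had 9.48 and 11.6.

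Against each of their parents, C24/Col hybrids gave 0 calls among the 10 in edgeR and in DESeq2. From C24 (7.11% of all genes called) 0 genes had an unadjusted p below 0.05, and from Col (3.63% called) 4 did: MET1 at -0.39, CMT3 at -0.44, RDR2 at -0.25 and DRM2 at 0.14. Over all genes, 6214 of 29777 had an unadjusted p below 0.05 from C24 and 4852 from Col. CMT3 was called from Col with the replicate letter as a block (-0.42, adjusted p = 0.0313, edgeR) and without Col B (-0.72, adjusted p = 0.0256, edgeR), while without Col A the difference was -0.08 (adjusted p = 0.952, edgeR). From C24 it was called where the 28 libraries shared 1 fit (-0.57, adjusted p = 0.0264, edgeR). CMT3 in these hybrids was 18.5 and 15.4 CPM in C24xCol and 14.4 and 14.9 in ColxC24. All 4 values lay below Col A and 3 of them below Col B. In Col/Ler hybrids CMT3 differed from Col by -0.42 (adjusted p = 0.293, edgeR), without Col B by -0.70 (adjusted p = 0.0391, edgeR) and without Col A by -0.06 (adjusted p = 0.992, edgeR).

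The direction of the cross made no call among the 10. C24xLer against LerxC24 called 0 in edgeR (0.00339% of all genes), with 0 at an unadjusted p below 0.05 and 0 in DESeq2. C24xCol against ColxC24 called 0 (0%), with 0 and 0. ColxLer against LerxCol called 0 (0%), with 0 in DESeq2. An unadjusted p below 0.05 was met there by 1059 of 29777 genes and by 1 of the 10. That was DRM2, with 18.8 and 19.4 CPM in ColxLer and 15.7 and 16.7 in LerxCol, groups that did not overlap (log2 difference 0.24 ± 0.07, adjusted p = 1, edgeR). For NRPE1 the interval of the difference between directions was -0.28 to 0.14 in C24/Ler, -0.30 to 0.18 in C24/Col and -0.13 to 0.34 in Col/Ler.

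In replicates A and B, which all 9 genotypes have, the order of NRPE1 was Ler at a mean of 48.2 CPM, LerxC24 at 40.8, C24xLer at 40.2, ColxLer at 36.3, LerxCol at 33.8, C24 at 30.8, ColxC24 at 28.3, Col at 28.1 and C24xCol at 27.2. Neighbours in this order overlapped except Ler with LerxC24, C24xLer with ColxLer, and C24 with ColxC24. RDR2 ran from Ler at 15.6 through ColxLer at 14.9, LerxCol at 13.5, Col and LerxC24 at 12.8, C24xLer at 12.3, C24xCol at 11.2 and ColxC24 at 10.6 to C24 at 9.71 CPM. Here the breaks lay below Ler, below ColxLer and below C24xLer. ROS1 broke below C24xLer, the highest at 107 CPM, and NRPD1 below Col, the highest at 15.7 CPM. DRM2 broke below C24xCol at 19.0 and below C24 at 17.7 CPM, with LerxCol lowest at 16.2. MET1 and CMT3 were highest in Col, at 44.8 and 21.2 CPM, and broke below LerxC24, at 34.6 and 16.0. DCL3 also broke below LerxC24, at 14.1 CPM, with ColxC24 lowest at 12.9. For DDM1 and DME all neighbours overlapped, from 23.0 (Col) to 19.0 CPM (LerxCol) and from 98.2 (C24xLer) to 92.5 CPM (Col). Each genotype had 2 libraries here, and how many of all genes show such breaks was not counted.

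Several pairs of the genes varied together over the libraries. Over the 28 libraries, on log2(CPM + 0.5), MET1 correlated with CMT3 (Pearson r = 0.83) and with ROS1 (0.80), DDM1 with NRPD1 (0.82) and NRPE1 with RDR2 (0.65), while DDM1 and DME ran opposite (-0.70), as did NRPD1 and ROS1 (-0.65). After each genotype's mean was taken off, the values were 0.93, 0.86, 0.88 and 0.48, then -0.70 and -0.68. The libraries share replicate letters and parents, so these are descriptions over 28 points that are not independent. MET1 was highest in C24 E at 72.0 CPM, where CMT3 also peaked at 35.2, and lowest in ColxC24 B at 31.9. ROS1 peaked in LerxC24 U2 at 156 CPM, where MET1 was at 61.5. Of the windows printed above, that of ROS1 alone held a form of the E2F motif. Only exact matches within 250 bases were searched, and the part of E2F factors in these levels was not tested.

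**Figure D4:**
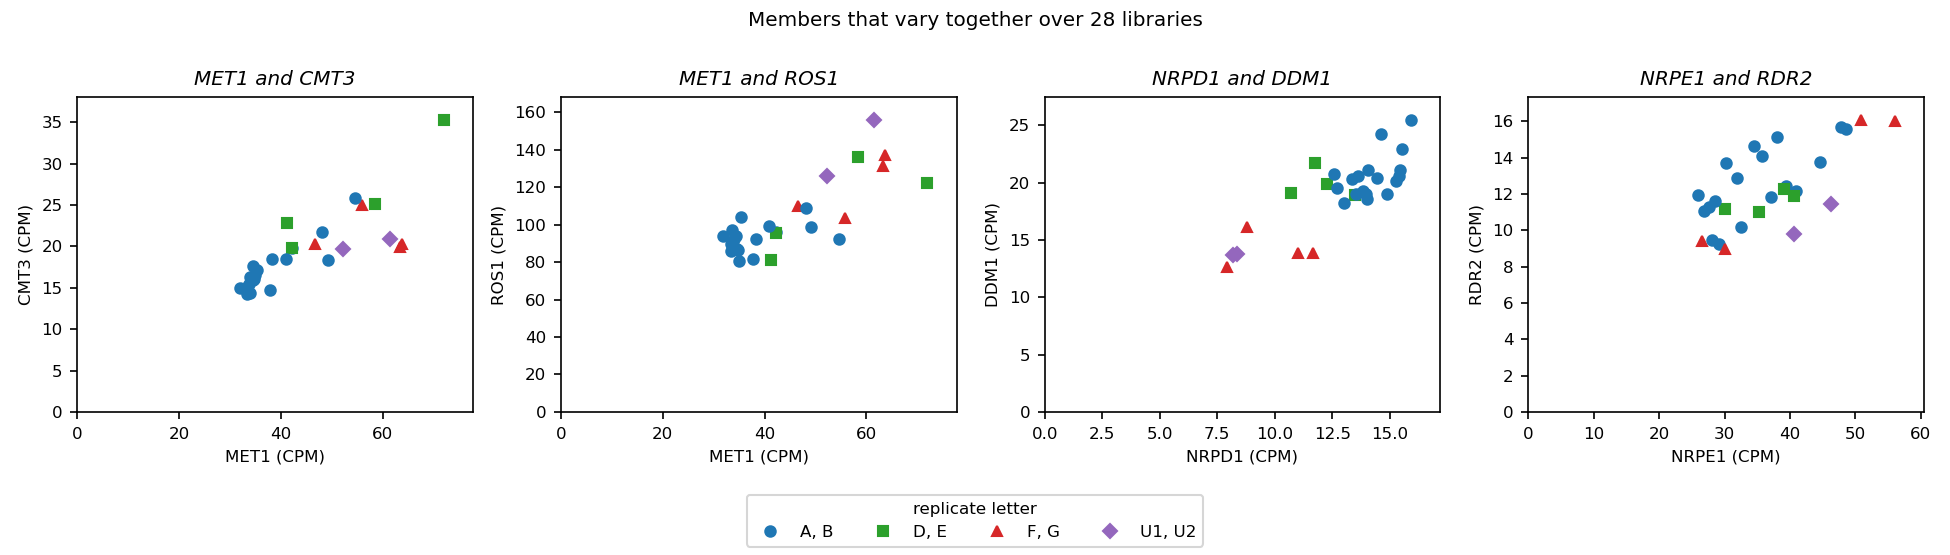
Each point is 1 of 28 libraries, coloured by replicate letter; both axes are levels in CPM from 0. MET1 rises with CMT3 (r = 0.83) and ROS1 (r = 0.80), DDM1 rises with NRPD1 (r = 0.82) with the F, G, U1 and U2 libraries at the low end, and NRPE1 with RDR2 (r = 0.65).

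The libraries F, G, U1 and U2 stood apart for DDM1, without overlap. The 4 libraries lettered F and G and LerxC24 U1 and U2 had 12.6 to 16.1 CPM, and the other 22 had 18.2 to 25.4. The columns of U1 and U2 are headed D and E, and replicates D and E of C24 and C24xLer lay with the other 22. How many of all genes separate these libraries in this way was not counted. In the same 6 libraries NRPD1 was at 7.93 to 11.7 CPM against 10.7 to 15.9, and ROS1 at 104 to 156 against 80.5 to 136, both with overlap. In a fit of 16 libraries of C24, Ler and their hybrids, without U1 and U2, with a term for the letter, added after seeing the data, 5 of the 10 were called for that term (MET1, CMT3, DDM1, NRPD1 and ROS1, adjusted p = 0.00100 to 0.00700, edgeR), where 54% of all genes were. NRPE1 and RDR2 were not (adjusted p = 0.704 and 0.703, edgeR). The labels do not say what the letters stand for. The 5 leaf genes differed over letters too: in C24 they summed to 16009 to 30512 CPM over 6 letters and to 26160 to 30512 CPM in A and B. Their part in the levels of the 10 genes was not tested.

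Correlations with the 12 genes of dividing cells differed from gene to gene of that list. Over the 28 libraries those of MET1 ran from -0.14 (CYCA1;1) to 0.86 (MCM5). MET1 also had 0.80 with the mitotic cyclin gene CYCB1;2 but -0.11 with the kinase gene CDKB1;1. CMT3 ran from -0.03 (CDKB2;1) to 0.77 (MCM5), with 0.71 for the replication clamp gene PCNA1. DDM1 ran from -0.38 (MCM5) to 0.85 (CDKB1;1), and was at -0.26 with CYCB1;2 and -0.24 with MCM2. DCL3 ran from -0.15 (MCM5) to 0.86 (CDKB2;1). The 12 genes summed to 128 to 214 CPM over the libraries, with the widest range within Col, 138 to 214 CPM.

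Among 23666 genes with a mean of at least 1 CPM, the 3 most like each gene by Pearson r over the 28 libraries were listed. For MET1 they were TIL1 (r = 0.94), AT3G15140 (0.93) and BRCA1 (0.93); TIL1 is a catalytic subunit of DNA polymerase epsilon and BRCA1 a DNA repair gene. For CMT3 they were AT4G02110 (0.94), BARD1 (0.91), the partner of BRCA1, and AT3G60660 (0.90). NRPE1 was most like AT4G29760 (0.95), VIP2 (0.94) and AT1G24390 (0.93), and RDR2 most like MEE32 (0.89), AT1G63950 (0.89) and the receptor kinase gene XIP1 (0.88). ROS1 was most like PKP-BETA1 (0.94), a plastid pyruvate kinase subunit, then AT3G56130 and AT5G52940 (both 0.91), and DME most like SWP (0.94), a subunit of the Mediator complex, AT1G24560 (0.93) and EMB3011 (0.92). DDM1 had AT1G74820, AT1G33170 and AT5G53990 (0.92 each), NRPD1 AT1G15900 (0.94), AT4G33120 and AT5G17530 (0.93 each), DCL3 AT5G60720 (0.86), CDKB2;1 (0.86) and SEOa (0.85), and DRM2 AUG6 (0.77), AT5G51150 (0.76) and AT5G22450 (0.75). No other gene of the 10 was among any of these.

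Around the 10 genes, 51 further genes of the pathway were listed by role, and all 51 passed the filter. C24 against Ler called 10 of 51 (19.6%), 5 higher and 5 lower in C24, where 14.3% of all genes were called (7.29% higher and 7% lower). C24 against Col called 6 (11.8%), 2 higher and 4 lower in C24, beside 13.3% (5.59% and 7.67%). Col against Ler called 10 (19.6%), 7 higher and 3 lower in Col, beside 13.9% (7.91% and 6%). With the replicate letter as a block the counts for C24 against Col and Col against Ler were 14 and 15, and the shares of all genes called in that fit 21.7% and 23.6%. For the genes named from this list, the values in parentheses are the log2 difference and edgeR's adjusted p, and for a fit with a library left out the adjusted p alone. Median log2 differences of the 51 were -0.04, 0.06 and -0.07.

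Among the 51, SUVH9 had the largest log2 difference between C24 and Ler; its protein reads methylated DNA and brings polymerase V to it. SUVH9 had 13.4, 11.6, 16.7 and 15.2 CPM in Ler A, B, F and G, 35.6 CPM at the lowest, 43.7 at the median and 47.7 at the highest in C24, and 36.2 and 32.7 in Col. All Ler libraries were below all of C24 and Col, opposite to NRPE1, at a log2 difference of 1.58 ± 0.16 for C24 against Ler (adjusted p = 1.28e-06, edgeR) and 1.48 ± 0.13 for Col against Ler (adjusted p = 1.21e-05, edgeR). RDM1, a subunit of the complex that recruits polymerase V, had 4.13, 5.06, 4.48 and 3.73 CPM in Ler and 6.85 to 10.0 in C24, without overlap (log2 difference 0.95 ± 0.13, adjusted p = 6.92e-05, edgeR; Col against Ler 1.18, 0.000106). Its counts are uncertain because it overlaps AT3G22670. Also higher in C24 than in Ler was IDN2, a double-strand RNA binding protein downstream of polymerase V (0.46, adjusted p = 0.00858, edgeR; 0.0807 in replicates A and B alone). Lower in C24 were MORC1, an ATPase of gene silencing (-0.43, 0.000311), and DMS4, a polymerase factor (-0.56, 0.000390). FDM1, a relative of IDN2, was low in Col at 32.5 and 31.1 CPM against 57.5 to 66.9 in C24 and 52.5 to 61.9 in Ler (C24 against Col 0.99, adjusted p = 5.67e-06; Col against Ler -0.76, 5.11e-05, edgeR). DMS4 was lower in C24 than in Col too (-0.45, 0.0104), lost without C24 B (0.0677) or Col B (0.0655).

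Of the partners of the methyltransferases, IBM1, the histone demethylase that keeps CHG methylation out of genes, had 10.5, 12.1, 13.8 and 14.5 CPM in Ler, below 19.2 to 26 in C24 and 23.2 and 21.2 in Col (C24 against Ler 0.82 ± 0.13, adjusted p = 0.000261; Col against Ler 0.99 ± 0.10, 3.52e-05, edgeR). VIM2, a reader of newly copied CG sites, was lowest in C24 at 1.69 to 2.29 CPM against 3.23 to 4.02 in Ler (C24 against Ler -0.94, 3.97e-05) and 4.99 and 4.42 in Col (C24 against Col -1.43, 6.25e-06); its counts are uncertain where reads also match near-identical copies. VIM1 was lower in C24 than in Col (-0.94, 0.00851), lost without C24 B (0.0832) or Col A (0.0868), with the same doubt. MET2, a homologue of MET1, was higher in Col than in Ler (0.69, 0.000993), though not with the 28 libraries in 1 fit (0.0985), as was CMT1, a homologue of CMT3 (0.47, 0.0227), lost without Ler A (0.157), Ler B (0.0613) or Col A (0.126).

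Of the small RNA genes, AGO9, an Argonaute best known from ovules, was higher in Col at 4.75 and 4.93 CPM than in C24 (1.72 to 3.39; -0.69, adjusted p = 0.00296, edgeR) and Ler (2.56 to 3.51; 0.66, 0.00392). RDR6, the polymerase of trans-acting small RNAs, was higher in C24 than in Col (0.29, 0.0350), lost without Col A or Col B (0.0914 and 0.159), C24 A or C24 B (0.151 and 0.0850), Ler B (0.0581) or ColxLer A (0.0502). AT1G05490, a chromatin remodelling gene (CLSY3), was lower in C24 than in Ler (-0.64, 0.0129), lost without Ler F (0.0556) or Ler G (0.0661). AT3G48425 was the one call in the list of 10 genes of demethylation and methylation readers. It was lower in Col than in Ler (-0.33, 0.0187), lost without Ler A (0.0713), Ler B (0.102), Col A (0.0727) or Col B (0.0782). With all 24 libraries of the C24/Ler family SUVH9, MORC1 and IDN2 were still called between C24 and Ler, and VIM2, RDM1, IBM1, DMS4 and CLSY3 were not (adjusted p = 0.855, 0.203, 0.0722, 0.341 and 0.139, edgeR).

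**Figure D5:**
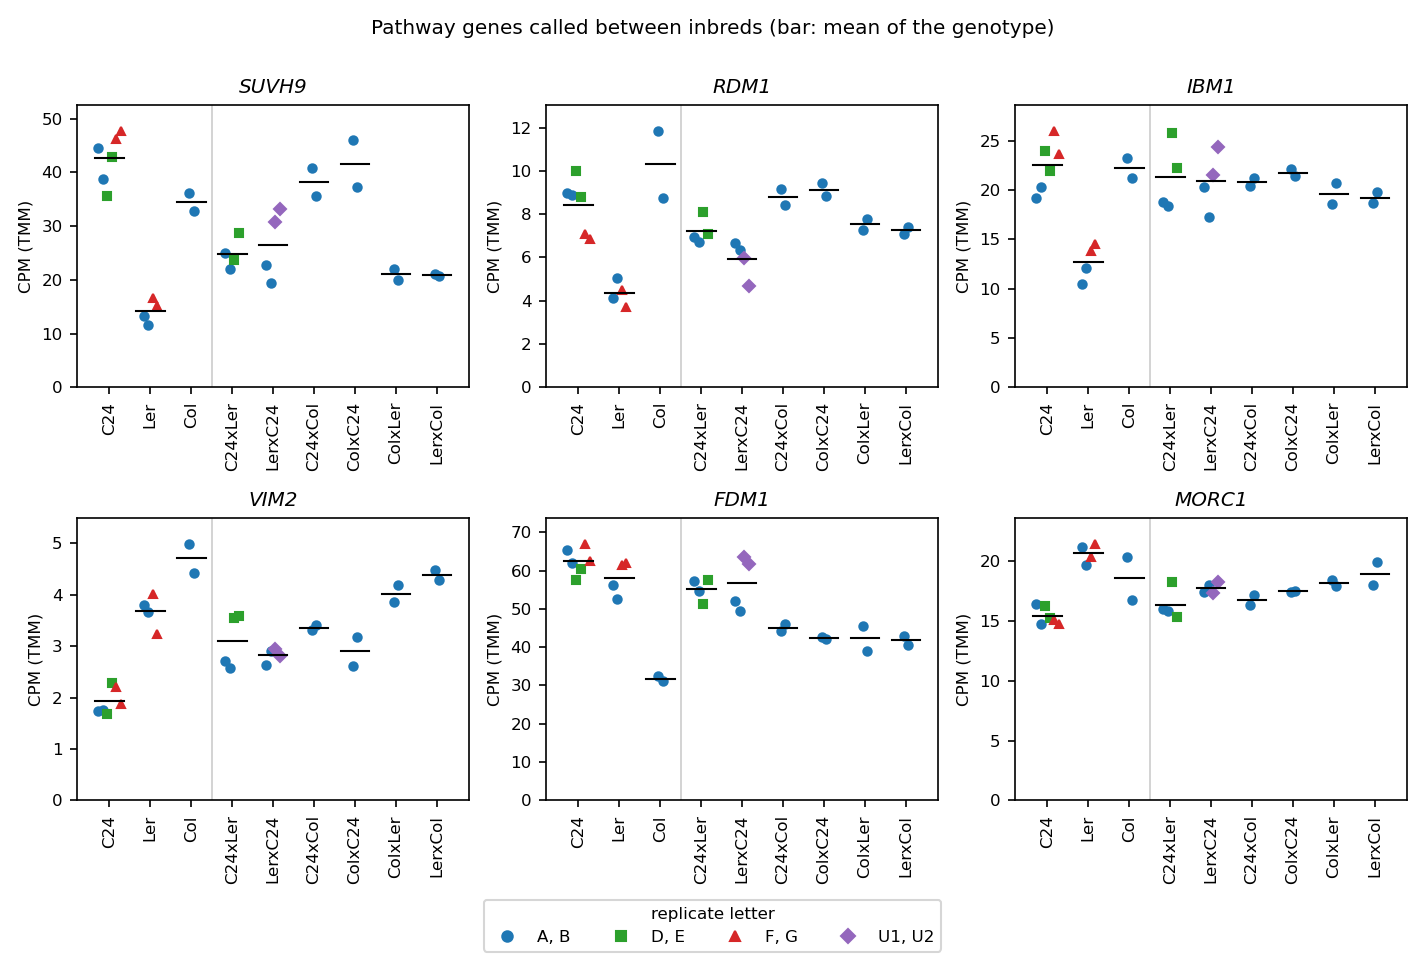
Levels (CPM, TMM scaled, vertical axis from 0) of SUVH9, RDM1, IBM1, VIM2, FDM1 and MORC1 by genotype (horizontal axis); points are libraries, coloured by replicate letter, and bars are genotype means. SUVH9, RDM1 and IBM1 are lowest in Ler, VIM2 in C24 and FDM1 in Col, where it had 31.8 CPM on average.

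Against the mid-parent 0 of the 51 were called by edgeR in each family and in all hybrids against all inbreds. At an unadjusted p below 0.05 there were 2 (C24/Ler), 6 (C24/Col), 3 (Col/Ler) and 3 (all hybrids). Over all genes the counts at that p were 2074 of 29528, then 3702, 2971 and 5314 of 29777. DESeq2 called 0, 0, 1 and 1, where it called 1.51%, 2.64%, 2.13% and 5.7% of all genes. In the fit of replicates A and B with the letter as a block, 3 were called in C24/Col (7.44% of all genes), 1 in Col/Ler (4.22%) and 4 in all hybrids against all inbreds (13.3%). IBM1 was the 1 in Col/Ler hybrids, above the mid-parent at 0.29 (adjusted p = 0.0333, edgeR; 0.29 and 0.106 without the block). Its levels were 18.6 and 20.7 CPM in ColxLer A and B and 18.6 and 19.8 in LerxCol A and B, below both Col libraries and above all Ler libraries. SUVH9 was at 22.1 and 19.9 CPM in ColxLer and 21 and 20.6 in LerxCol, between the parents, with a log2 difference of 0.00 from the mid-parent (adjusted p = 0.995, edgeR). In C24/Ler hybrids SUVH9 had 21.9 to 28.8 CPM in C24xLer and 19.3 to 33.1 in LerxC24, called against each parent in opposite directions (-0.73 from C24, 0.00115, and 0.85 from Ler, 0.00198, edgeR). Between the directions of a cross 0 of the 51 were called in each family by edgeR and by DESeq2, with 1, 1 and 3 at an unadjusted p below 0.05. All genes tested gave 1097 of 29528, then 715 and 1059 of 29777, at that p.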

How the data were processed

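RNA-seq (TruSeq mRNA kit, single- or paired-end reads, per the labels' protocols) gave 1 deposited table of raw read counts per locus for 34 libraries made by the authors. The submitters' processing notes name TAIR10 and FastQC. For the aligner, the counter and the strand setting, the sources used here give no name. TAIR10 is the genome of Col, so reads of C24 and Ler alleles that differ from it may have been counted less often. The members and lists were chosen with earlier results of these data known. Columns headed D and E for LerxC24 match no title of that cross (its titles have F and G), so both were used as replicates without a letter (U1, U2). The series' design text calls the replicates biological and does not say whether they were grown apart, so p-values measure the spread between these libraries.

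From the deposited counts, TMM factors, CPM and quasi-likelihood tests (robust, with filterByExpr) were computed in edgeR 4.0.16 (R 4.3.3). A gene is called at an adjusted p below 0.05 (Benjamini-Hochberg over all genes tested). The first fit held 18 libraries of C24, Ler and their hybrids (29528 genes), the second replicates A and B of all 9 genotypes (18 libraries, 29777 genes). C24 against Ler and the C24/Ler hybrids come from the first, the rest from the second. Hybrids of a family were averaged over both directions. The scripts were tested on simulated data.

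Replicates of a genotype were compared in 38 pairs, and the lowest chi-square per gene was 23.9, in C24 F and G. None thus repeated the counts of another. Whether 2 libraries share plants or RNA cannot be told in this way. In the second fit the letters paired the samples: all 72 same-letter pairs deviated together (r = 0.200 to 0.504), which comes from the data and not from the labels. Each genotype has 2 libraries there, so A and B deviate equally and oppositely from their mean. The r of each pair of A libraries therefore repeats that of the matching B pair. Depth was 36324848 to 88686247 counts per library. Alternatives were DESeq2 1.42.0, its size factors, no filter, all 24 libraries of the C24/Ler family, A and B alone, the 28 libraries in 1 fit, the letter as a block and each library left out; a test of the letter term and the comparison of Ler D and E with the other Ler libraries were added after seeing the data. The text names the 10 genes, the 3 genes most like each, and up to 8 called genes of the wider pathway per comparison. Overlap with other genes and upstream windows were read from TAIR10.1 (RefSeq).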

Additional observations from a re-analysis of the deposited data

Results flagged for a closer look

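Of 40 groups of 4 to 6 libraries (10 genes in 4 genotypes), 2 held a library far from the others, where chance gives about 1 in 20. DDM1 was at 24.2 CPM in C24xLer A, with the nearest of the other 3 libraries at 19.1 CPM. DCL3 was at 10.2 CPM in LerxC24 U1, with the nearest of the other 3 at 14.1 CPM.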

How the results depend on the processing

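For the 10 genes, 950 values were recomputed under settings other than a left-out library: 2 calls were lost, 12 gained, none changed sign, and 45 values not called in either fit did. Over 3240 values with a library left out, 8 calls were lost, 10 gained, none changed sign, and 125 uncalled values did. With the replicate letter as a block, C24 against Ler called 5 of the 10 genes (32.2% of all genes, against 14.3% without it) and all hybrids against all inbreds 1 (13.3%, against 2.44%). Leaving out 1 library gave 0 to 1 of the 10 called for C24 against Col, 1 to 2 for Col against Ler and 0 to 1 for C24/Col hybrids against the mid-parent. With 1 library left in a genotype, it is assumed to vary like the other genotypes. The cause was not tested.

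In the C24/Ler fit the main test did not pair libraries by letter, although most same-letter pairs deviated together. The 16 same-letter pairs had r from -0.0076 to 0.649. Their median r was 0.413, against -0.098 for pairs with different letters, and 14 of 16 libraries correlated best with their own letter. In the fit of replicates A and B, whose letters were taken as pairing, the median was 0.353, and its main test had no letter term either. The range of r is thus no ground for treating the C24/Ler letters otherwise. The C24/Ler calls depend on whether the letter is in the fit. The block added NRPD1 (-0.24, adjusted p = 0.0473, edgeR), DME (-0.26, 0.0278) and DCL3 (-0.42, 0.0275) to the C24 against Ler calls, NRPE1 against Ler and RDR2 against C24 to those of the C24/Ler hybrids, and took the wider pathway from 10 to 21 calls of 51 for C24 against Ler and from 0 to 1 for the C24/Ler mid-parent, where 2.77% of all genes were called. In the fit of replicates A and B it changed no call of the 10 genes but those given for MET1 and CMT3.

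Over all genes, C24 against Ler called 4220, 1472 with all 24 libraries and 9609 with the block. C24 against Col called 3949 and 6460 with the block, and Col against Ler 4143, 7020 with the block and 2703 with 28 libraries in 1 fit. Mid-parent calls were 227 in C24/Ler (71 with all 24 libraries, 826 with the block, 446 in DESeq2), 369 in C24/Col (2214 with the block, 786 in DESeq2) and 334 in Col/Ler (1258, 634, and 206 with 28 libraries). All hybrids against all inbreds called 727 (3952 with the block, 1697 in DESeq2), any genotype 5107 (10228, 8257) and the family difference 202 (391, 421).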
